A study of Homo sapiens with 8 samples.

Results

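The genes described here encode the core machinery of autophagy and its final compartment, the lysosome. They were chosen as a list of 35 gene symbols, and all 35 were matched to a gene ID, out of 20897 genes listed for each library. Of these members, 34 reached at least 1 FPKM (fragments scaled to the length of the transcript and to the library) in at least 2 libraries and were tested among 12661 genes. ULK2, a kinase closely related to ULK1, was listed at 0 FPKM in all 8 libraries and was not tested.

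PolyA RNA was sequenced from HepG2, an established line of human hepatocellular carcinoma cells that carries many functions of hepatocytes. The genistein group (3 libraries) received genistein, a plant isoflavone that inhibits tyrosine kinases. The BMP6 group (2 libraries) received bone morphogenetic protein 6, which induces hepcidin in hepatocytes, at 50 ng/ml. The DMSO group (3 libraries) received vehicle. All 3 groups were kept in 10% serum until 24 h after plating, and 1% serum was used from then on. Treatment began 8 h later, lasted 18 h and was given in 1% DMSO for every well, including BMP6. The series design gives genistein as 10 micromolar, whereas the treatment protocol prints that figure in millimolar, and the dose is therefore uncertain. Libraries of a group are biological replicates, per the series design. All of them come from 1 cancer line, at 1 dose and 1 time. The title of the series names hepcidin, not autophagy.

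Macroautophagy starts when a lack of nutrient signals releases the ULK1 kinase complex. A lipid kinase complex with PIK3C3 then marks the membrane that grows into an autophagosome. Conjugation enzymes attach small ubiquitin-like proteins of the ATG8 family (LC3 and GABARAP) to this membrane, where receptors such as p62 tether cargo. The vesicle fuses with the lysosome, whose cathepsins digest the content, and in liver this supplies amino acids and lipids during fasting. The transcription factors TFEB and TFE3 are known to bind an E-box element (CACGTG, in its longer form flanked by GT before and AC after) before many of these genes, and p62 is known both as a target and as an activator of the stress factor NRF2.

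All 10 hepatocyte markers were above 0 in every library, with summed levels of 134000 to 215300 FPKM in genistein, 205800 to 226200 in BMP6 and 178600 to 222900 in DMSO libraries. TTR, 1 of these, averaged 1307 FPKM in genistein, 2815 in BMP6 and 7848 in DMSO libraries (limma adjusted p = 0.0193 for genistein against DMSO), the 1 hepatocyte marker that passed. The log2 change was above 0 for 4 and below 0 for 6 of the 10. APOA1 averaged 8219 FPKM in genistein, 20060 in BMP6 and 53321 in DMSO libraries (limma adjusted p = 0.0895), and ALB 51777, 101370 and 29743 FPKM (limma adjusted p = 0.561). The part of these markers in the results was not tested. Among 7 matched macrophage and leukocyte markers, PTPRC, CSF1R, C1QA and C1QB were at 0 in all libraries. Their summed level, mostly LYZ, was 1242 to 1955 FPKM in genistein, 1562 to 2401 in BMP6 and 3250 to 4859 in DMSO libraries. COL1A1, COL1A2, COL3A1, DCN and LUM, 5 of 6 fibroblast markers, were at 0 in all libraries, as were the endothelial KDR and STAB2, 2 of 4 matched endothelial markers. PDGFRB, the sixth fibroblast marker, stood at 2.92, 0 and 2.08 FPKM in genistein, 19.5 and 14.3 FPKM in BMP6 and 4.91, 1.88 and 3.64 FPKM in DMSO libraries (limma adjusted p = 0.177 for BMP6 against DMSO). FPKM totals ranged from 1704599 to 3105197 per library, and the read depth is unknown. DMSO 1 and genistein 2 listed 1679 and 2167 tested genes at 0, and the other 6 libraries 356 to 962. The deviations of genistein 3 and BMP6 1 from their group means correlated at 0.594 across tested genes. With only 2 BMP6 libraries their deviations are mirror images, so the value for BMP6 2 was -0.594. Which of the 2 BMP6 libraries departs cannot be told from this. DMSO 1 was the lowest library of its group for 30 of the 34 members and for 61.1% of all tested genes. BMP6 1 was the lower library of its pair for 26 of 34 members and 67.3% of all tested genes. Results below are given without these libraries for some of the members where that changes a call or moves a value by much.

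The sequences just before the start of some members are shown first, because TFE3 was among the members that were higher after genistein and its element can be looked for there. RefSeq (GRCh38.p14) gave the 250 bases upstream of the start site for 31 members. The long form was found, reading both strands, in 0.33% of 27305 promoters and in 1 member, MCOLN1, the gene of a lysosomal calcium channel. The core CACGTG, which the long form contains, was found in 6.49% of all promoters and in 5 of the 31 members. These were MCOLN1, LAMP1 (a glycoprotein of the lysosomal membrane), CTSD (cathepsin D), ATG14 (a subunit of the lipid kinase complex) and ATG3 (a conjugation enzyme). The 60-base windows that hold these cores are shown 5′ to 3′ on the gene's strand, with CACGTG in capitals.
MCOLN1, chr19:7522564-7522623, plus strand: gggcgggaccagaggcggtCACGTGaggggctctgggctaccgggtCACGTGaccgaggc
LAMP1, chr13:113297179-113297238, plus strand: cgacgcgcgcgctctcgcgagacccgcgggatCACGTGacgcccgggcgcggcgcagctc
CTSD, chr11:1763942-1764001, minus strand: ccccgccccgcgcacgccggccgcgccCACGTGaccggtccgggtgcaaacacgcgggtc
ATG14, chr14:55411831-55411890, minus strand: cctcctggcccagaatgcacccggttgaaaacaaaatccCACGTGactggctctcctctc
ATG3, chr3:112561963-112562022, minus strand: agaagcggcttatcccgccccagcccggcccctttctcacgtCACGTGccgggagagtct
MCOLN1 held 2 cores and LAMP1 held 5 within their 250 bases. None of these 5 genes passed the test after genistein. Of the 8 members that did, 7 had a promoter in the table, and none of those 7 held CACGTG in this window. That says only that these letters are not in this window. SQSTM1 is among the 7, and its listed span is 17179 bases against 31686 in RefSeq. Its window may therefore not lie just before the transcript measured.

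Other elements bore on single members. The antioxidant response core TGACNNNGC, to which NRF2 is known to bind, was found in 11.03% of all promoters and in 4 of 31 members (CTSD, LAMP1, MAP1LC3B and CTSL). In LAMP1 it overlapped a CACGTG. CTSL, the gene of the protease cathepsin L, was the member among these 4 that passed the test after genistein, and its window is shown with the core in capitals on the opposite strand.
CTSL, chr9:87726059-87726118, plus strand: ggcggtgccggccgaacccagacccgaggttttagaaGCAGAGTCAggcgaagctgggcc
The amino acid response core TGATGNAA was found in 3.19% of all promoters and in none of the 31 members. The cAMP response element TGACGTCA, searched for after the sequences had been seen, was found in 1.77% of all promoters and in 1 member, GABARAPL1, at position -30 counted from the start site. GABARAPL1 and ATG4B were both higher after genistein, and their whole 250-base windows differ in base composition: the first is 51.6% G and C and the second 74.4%. Capitals mark TGACGTCA.
GABARAPL1, chr12:10212627-10212876, plus strand: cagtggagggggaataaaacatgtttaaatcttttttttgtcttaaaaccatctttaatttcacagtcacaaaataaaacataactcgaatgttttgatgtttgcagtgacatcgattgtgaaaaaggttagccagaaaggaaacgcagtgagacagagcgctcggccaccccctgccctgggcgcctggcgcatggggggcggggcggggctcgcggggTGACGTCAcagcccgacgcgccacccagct
ATG4B, chr2:241637443-241637692, plus strand: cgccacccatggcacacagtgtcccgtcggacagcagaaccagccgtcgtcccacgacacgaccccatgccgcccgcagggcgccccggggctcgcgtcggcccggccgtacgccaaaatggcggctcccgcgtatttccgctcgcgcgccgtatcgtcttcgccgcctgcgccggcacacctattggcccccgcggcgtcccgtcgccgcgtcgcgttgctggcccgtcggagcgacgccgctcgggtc

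In vehicle-treated cells the autophagy machinery was transcribed at widely different levels. Means in DMSO ran from 6.86 FPKM for ATG4A to 664 FPKM for GABARAP, with a median of 72.6 FPKM over the 34 tested members. After GABARAP (SD 81.7) stood CTSB, the gene of cathepsin B, at 663 ± 158 FPKM (SD, n = 3), which did not differ from it beyond the spread. GABARAPL2 followed at 382 ± 47.2 FPKM, and CTSD, VMP1, MAP1LC3B, LAMP1, SQSTM1 and NBR1 lay between 254 and 220.5 FPKM, with SDs of 10.8 to 94.1, and neighbours among these 6 did not differ beyond their spread. At the low end, UVRAG, TFE3, TFEB, ATG7 and ATG4A averaged under 20 FPKM, as did MCOLN1. SQSTM1, which encodes p62, was the highest member in genistein libraries and the 8th highest in DMSO libraries.

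More members passed for genistein against DMSO than in the other comparisons. Of 34 tested members, 8 were higher and none was lower at a limma adjusted p under 0.05, while 12.1% of all tested genes passed, 6.11% higher and 5.96% lower. They were SQSTM1, ATG4B, ATG2A, TFE3, CTSL, CTSB, GABARAPL1 and ATG16L1. The median log2 change was 0.76 over the members and 0.05 over all tested genes, and the change was above 0 for 30 of 34 members and 51.5% of all genes. With median-of-ratios scaling, which shifted the median of all genes by -0.12, it was above 0 for 29 members, and without DMSO 1 for 25. The members that turned below 0 without DMSO 1 were ATG4A, ATG12, WIPI1, UVRAG and LAMP1. The genistein libraries lay wholly above the DMSO libraries for 17 members, against 23.3% of all genes, and wholly below for 1, GABARAP, against 20.6% (43.9% of all genes in either direction). The members and the lists below were chosen with earlier results of these data known. Comparisons with all genes, here and below, are therefore descriptions only. FPKM is a relative measure in a bulk sample, so fewer cells of a type and less RNA per cell cannot be told apart.

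**Figure D1:**
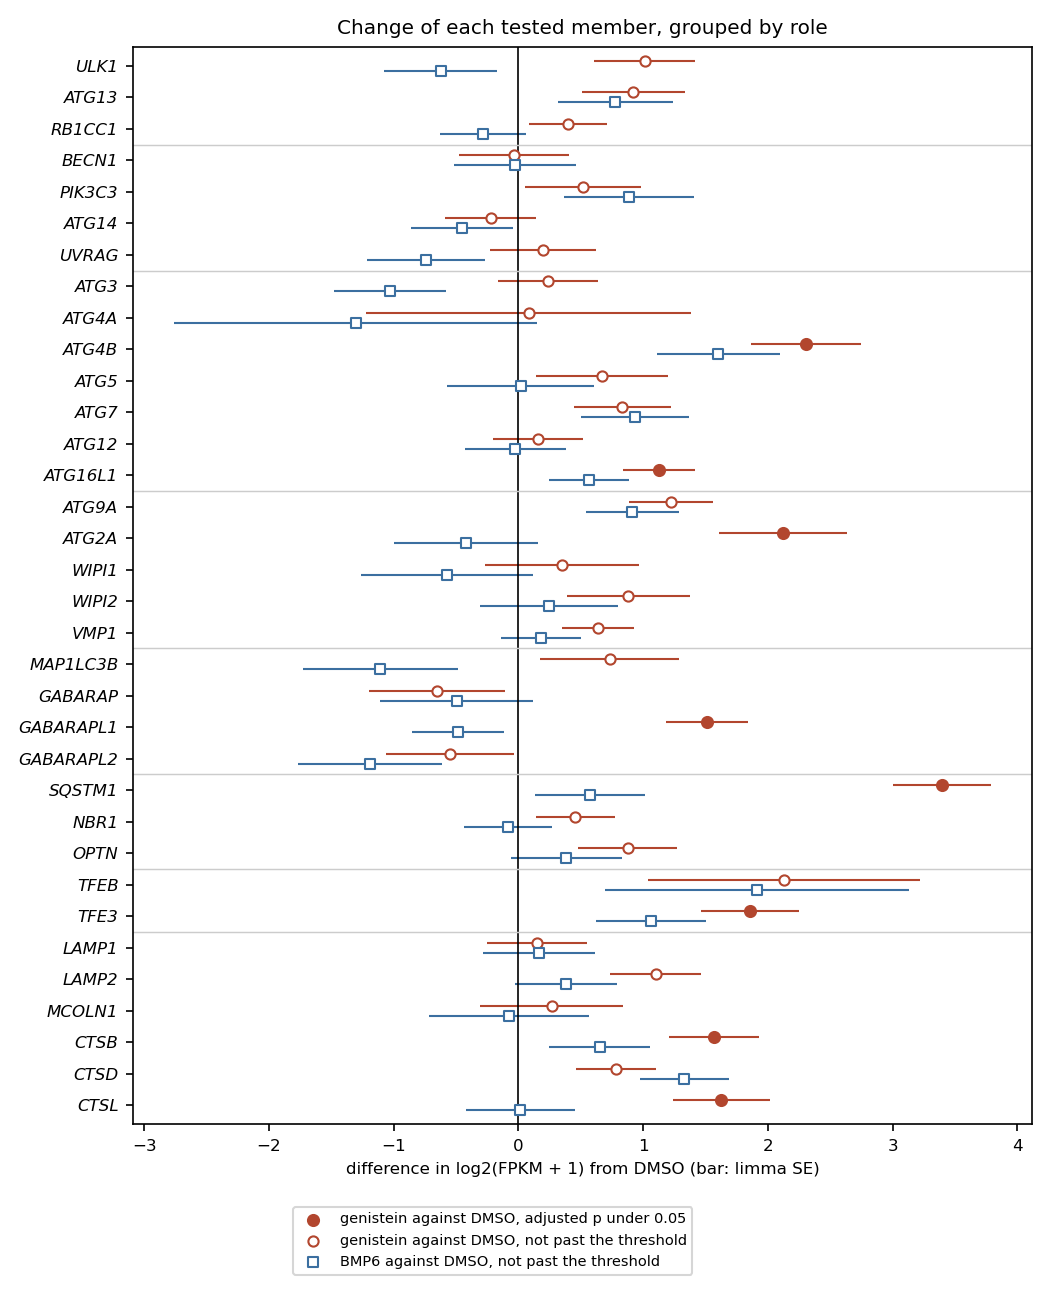
Difference in log2(FPKM + 1) from DMSO for each of the 34 tested members, ordered by role and separated by grey lines, with limma's SE as bars. The 8 filled circles are the members past the threshold after genistein, no BMP6 square is filled, and 30 of 34 genistein points lie right of 0.

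Cargo receptors were led by SQSTM1. SQSTM1 (ENSG00000161011; hg18 chr5:179180503-179197681) stood at 2862, 2062 and 2196 FPKM in genistein 1, 2 and 3, at 269 and 407 FPKM in BMP6 1 and 2, and at 145, 225 and 333 FPKM in DMSO 1, 2 and 3. Every genistein library stood far above every library of the other groups, whose highest was BMP6 2. It rose by 3.40 ± 0.39 (log2, SE; limma adjusted p = 0.00457), a ratio of means of 10.1, and was the only member that passed in every fit without 1 library (highest limma adjusted p = 0.0365, without DMSO 2). The other receptors tested are NBR1, which carries ubiquitinated cargo alongside p62, and OPTN, optineurin, which acts on mitochondria and bacteria. NBR1 stood at 309, 253 and 354 FPKM in genistein, at 280 and 154 FPKM in BMP6 and at 206, 224 and 232 FPKM in DMSO libraries (log2 change 0.46 ± 0.32 for genistein, limma adjusted p = 0.367). OPTN stood at 161, 89.9 and 144 FPKM in genistein, at 88.6 and 92.8 FPKM in BMP6 and at 41.7, 84.8 and 93.4 FPKM in DMSO libraries (0.88 ± 0.40, limma adjusted p = 0.178; 0.52 without DMSO 1). NBR1 did not overlap DMSO after genistein, and OPTN did. SQSTM1 made up 81.5% to 85.9% of the summed FPKM of the 3 receptors in genistein, 42.2% and 62.3% in BMP6 and 37.0% to 50.6% in DMSO libraries. The row of SQSTM1 spans 17179 bases against 31686 in RefSeq and shares 809 bases with MRNIP, and that of NBR1 spans 142461 bases against 41280. The assignment of reads in shared stretches was not stated.

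**Figure D2:**
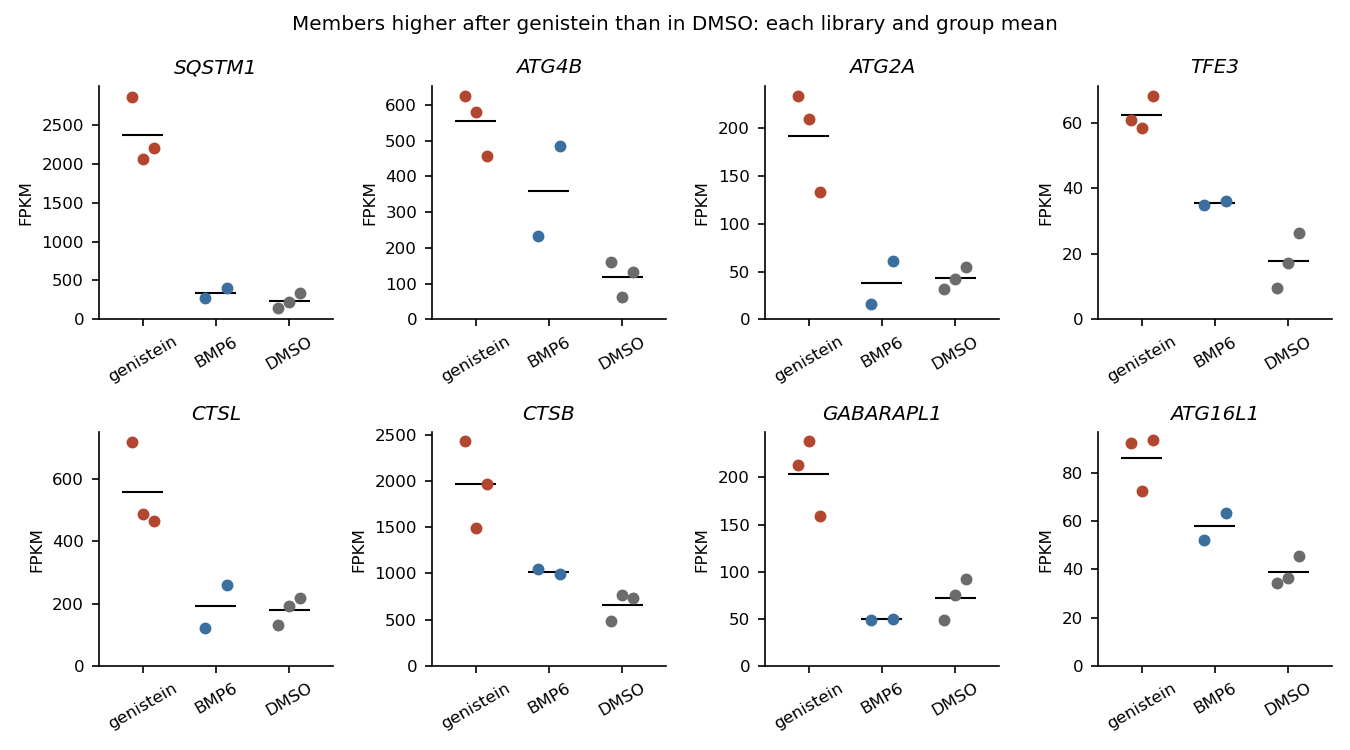
FPKM of the 8 members that passed the threshold after genistein, 1 panel each with its own axis from 0, points for libraries and lines for group means. In each panel the 3 genistein points lie above the 3 DMSO points. The BMP6 points overlap the DMSO points for SQSTM1, ATG2A, CTSL and GABARAPL1. They lie between the other groups' means for ATG4B, TFE3, CTSB and ATG16L1. For ATG4B, BMP6 2 lies above genistein 3.

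Within the ATG8 family, the proteins that coat the autophagosome, GABARAPL1 alone passed. GABARAPL1 (ENSG00000139112; hg18 chr12:10256756-10266989) stood at 213, 238 and 159 FPKM in genistein, at 49.1 and 49.8 FPKM in BMP6 and at 48.6, 75.3 and 92.0 FPKM in DMSO libraries. It rose by 1.51 ± 0.33 (log2, SE; limma adjusted p = 0.0259). MAP1LC3B, which encodes the LC3 protein most used to count autophagosomes, stood at 549.9, 432 and 258 FPKM in genistein, at 50.5 and 236 FPKM in BMP6 and at 225, 242 and 245 FPKM in DMSO libraries. Its genistein libraries were all above DMSO, but they spread widely and the log2 change of 0.73 ± 0.56 did not pass (limma adjusted p = 0.407). GABARAP stood at 548, 574 and 236 FPKM in genistein, at 245 and 897 FPKM in BMP6 and at 575, 736 and 683 FPKM in DMSO libraries (-0.65 ± 0.55, limma adjusted p = 0.454). GABARAPL2 stood at 266, 468 and 141 FPKM in genistein, at 102 and 269 FPKM in BMP6 and at 413, 328 and 406 FPKM in DMSO libraries (-0.55 ± 0.52, limma adjusted p = 0.507). Both were low in genistein 3 and BMP6 1, the pair of libraries with correlated deviations, and the log2 changes were -0.24 and -0.11 without genistein 3. GABARAPL1 and MAP1LC3B have near-identical intronless copies in the genome, so their reads may be shared and both levels are uncertain.

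The make-up of the family differed between groups as a description. GABARAPL1 made up 13.5%, 13.9% and 20.04% of the summed FPKM of the 4 transcripts in genistein, 10.99% and 3.43% in BMP6 and 3.85%, 5.46% and 6.45% in DMSO libraries. MAP1LC3B made up 25.2% to 34.9% in genistein, 11.3% and 16.3% in BMP6 and 17.2% to 17.8% in DMSO libraries. GABARAP, the leading transcript in every DMSO library, made up 29.8% to 34.8% in genistein, 54.8% and 61.8% in BMP6 and 45.6% to 53.3% in DMSO libraries. The sum itself was 1577, 1712 and 793 FPKM in genistein, 447 and 1453 in BMP6 and 1261, 1380 and 1426 in DMSO libraries, so genistein 3 and BMP6 1 were the low ones.

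**Figure D3:**
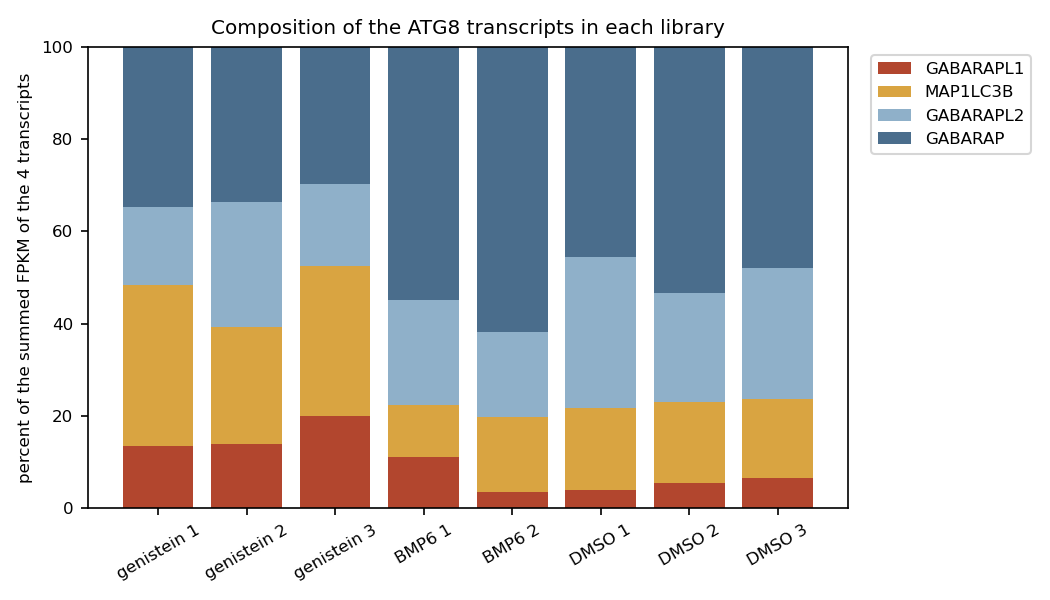
Percent of the summed FPKM of GABARAPL1, MAP1LC3B, GABARAPL2 and GABARAP in each of the 8 libraries, as stacked bars. GABARAPL1 and MAP1LC3B take a larger share in every genistein library than in every DMSO library, and GABARAP a smaller one.

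Conjugation enzymes had 2 of 7 members higher and all 7 with a log2 change above 0 (6 with median-of-ratios scaling, where ATG4A was at -0.02). Without DMSO 1, the changes of ATG4A and ATG12 were below 0. ATG4B, the protease that trims ATG8 proteins before conjugation and frees them afterwards (ENSG00000168397; hg18 chr2:242225301-242261945), stood at 624, 579.97 and 458 FPKM in genistein, at 235 and 485 FPKM in BMP6 and at 160.1, 63.2 and 133 FPKM in DMSO libraries. It rose by 2.30 ± 0.44 (log2, SE; limma adjusted p = 0.0174), and both BMP6 libraries also lay above DMSO. Its row shares 237 bases with THAP4, which stood at 289 to 623 FPKM in genistein, 194 and 654 in BMP6 and 101 to 406 in DMSO libraries. ATG16L1, which places the conjugation machinery on the membrane (ENSG00000085978; hg18 chr2:233825057-233869059), stood at 92.2, 72.3 and 93.6 FPKM in genistein, at 52.1 and 63.4 FPKM in BMP6 and at 34.4, 36.4 and 45.5 FPKM in DMSO libraries. It rose by 1.13 ± 0.29 (log2, SE; limma adjusted p = 0.041), with the groups in the order genistein, BMP6, DMSO and no overlap. ATG7, the activating enzyme of both conjugation pathways, stood at 28.6, 13.9 and 24.02 FPKM in genistein, at 22.1 and 23.8 FPKM in BMP6 and at 9.50, 10.9 and 14.6 FPKM in DMSO libraries (0.83 ± 0.39, limma adjusted p = 0.191). The genistein and DMSO libraries overlapped through genistein 2. ATG3, ATG5, ATG12 and ATG4A had means of 76.9, 37.2, 57.0 and 14.7 FPKM in genistein and 65.2, 26.8, 51.4 and 6.86 FPKM in DMSO libraries, and their libraries overlapped. The DMSO mean of ATG5 includes 9.04 FPKM in DMSO 1, against 34.8 and 36.5 FPKM in DMSO 2 and 3. ATG4A was listed at 0 in genistein 2 and BMP6 2.

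Membrane supply was led by ATG2A, a lipid transfer protein that feeds the growing membrane. ATG2A (ENSG00000110046; hg18 chr11:64418595-64441298) stood at 233, 209 and 134 FPKM in genistein, at 15.7 and 61.5 FPKM in BMP6 and at 32.0, 42.5 and 55.3 FPKM in DMSO libraries, and rose by 2.12 ± 0.51 (log2, SE; limma adjusted p = 0.0353). ATG9A, the lipid scramblase on vesicles that seed the membrane, stood at 251, 231 and 221 FPKM in genistein, at 159 and 224 FPKM in BMP6 and at 67.7, 107 and 136 FPKM in DMSO libraries. It missed the threshold narrowly (log2 change 1.23 ± 0.33, limma adjusted p = 0.0502) and passed with a pseudocount of 0.1 (0.0497), with no filter (0.0492) or with median-of-ratios scaling (0.0176). With 1 library left out, its limma adjusted p reached 0.145 and its log2 change was as low as 0.95. VMP1, an endoplasmic reticulum protein needed for autophagosome formation, stood at 429.5, 341 and 365 FPKM in genistein, at 259.5 and 291 FPKM in BMP6 and at 306, 225 and 206 FPKM in DMSO libraries (0.64 ± 0.29, limma adjusted p = 0.177). WIPI1 and WIPI2, which bind the lipid that PIK3C3 makes, averaged 139 and 169 FPKM in genistein against 115 and 104 FPKM in DMSO libraries, with overlap. In DMSO 1 they stood at 53.5 and 40.6 FPKM, far below the other DMSO libraries. Without DMSO 1 the log2 change of WIPI1 was below 0.

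No member of the upstream kinase complexes passed with all libraries. ULK1, the initiating kinase, stood at 83.2, 82.7 and 71.8 FPKM in genistein, at 15.5 and 39.2 FPKM in BMP6 and at 31.4, 34.4 and 53.7 FPKM in DMSO libraries. The genistein libraries did not overlap the others, but the log2 change of 1.01 ± 0.41 did not pass (limma adjusted p = 0.14). It passed without BMP6 1 or BMP6 2 and with the 2 groups alone (limma adjusted p = 0.0461). Over the fits with 1 library left out, its limma adjusted p reached 0.312 and its log2 change was as low as 0.86. ATG13, the subunit that links ULK1 to nutrient signals, stood at 97.8, 99.6 and 88.3 FPKM in genistein, at 83.3 and 88.4 FPKM in BMP6 and at 25.6, 68.0 and 69.9 FPKM in DMSO libraries (0.92 ± 0.41, limma adjusted p = 0.175; 0.46 without DMSO 1). RB1CC1, the scaffold of the complex, averaged 38.5 FPKM in genistein and 28.9 FPKM in DMSO libraries, which overlapped. Among the 4 members of the lipid kinase complex the largest change was that of PIK3C3, the catalytic subunit, at 49.1, 34.4 and 40.5 FPKM in genistein, 100.5 and 28.02 FPKM in BMP6 and 26.4, 29.9 and 28.6 FPKM in DMSO libraries (0.52 ± 0.47, limma adjusted p = 0.486). BECN1, its regulatory subunit beclin, averaged 84.6 ± 24.4 FPKM in genistein and 85.6 ± 18.5 FPKM in DMSO libraries (SD, n = 3 each), and ATG14 and UVRAG overlapped likewise.

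Of the transcription factors, TFE3 passed and TFEB did not. TFE3 (ENSG00000068323; hg18 chrX:48772613-48787722) stood at 60.7, 58.4 and 68.3 FPKM in genistein, at 34.9 and 36.2 FPKM in BMP6 and at 9.64, 17.3 and 26.3 FPKM in DMSO libraries. It rose by 1.86 ± 0.39 (log2, SE; limma adjusted p = 0.0235), with BMP6 between the other groups. TFEB stood at 35.2, 33.7 and 25.9 FPKM in genistein, at 18.4 and 38.6 FPKM in BMP6 and at 0, 13.5 and 26.4 FPKM in DMSO 1, 2 and 3. The groups overlapped, and its large log2 change of 2.13 ± 1.09 (limma adjusted p = 0.226) includes the DMSO library listed at 0 and was 0.69 without it. The row of TFEB also shares 12336 bases with PGC, which stood at 325 to 386 FPKM in genistein, 489 and 658 in BMP6 and 212 to 306 in DMSO libraries.

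At the lysosome, CTSB and CTSL rose and the other 4 members did not pass. CTSB (ENSG00000164733; hg18, chromosome 8, 11737442 to 11763055) stood at 2428, 1496 and 1970.2 FPKM in genistein, at 1043 and 997 FPKM in BMP6 and at 481, 768 and 739 FPKM in DMSO libraries, and rose by 1.57 ± 0.36 (log2, SE; limma adjusted p = 0.03). CTSL (ENSG00000135047; hg18 chr9:89530254-89536200) stood at 720.5, 488 and 465 FPKM in genistein, at 122 and 261 FPKM in BMP6 and at 131, 192 and 218 FPKM in DMSO libraries, and rose by 1.63 ± 0.39 (log2, SE; limma adjusted p = 0.0342). In BMP6 libraries CTSB lay above DMSO, while CTSL overlapped DMSO. CTSD, the aspartic protease cathepsin D, stood at 452, 399 and 419.9 FPKM in genistein, at 651 and 587 FPKM in BMP6 and at 196, 212 and 354 FPKM in DMSO libraries (0.78 ± 0.32 for genistein, limma adjusted p = 0.143). It was the protease with its highest values in BMP6 libraries. LAMP2, the membrane glycoprotein needed for autophagosome fusion, stood at 255, 283 and 325 FPKM in genistein, at 273 and 110.2 FPKM in BMP6 and at 131, 136 and 132 FPKM in DMSO libraries (1.10 ± 0.36, limma adjusted p = 0.0866). LAMP1 stood at 312, 291 and 187 FPKM in genistein, at 172 and 394 FPKM in BMP6 and at 178, 252 and 278 FPKM in DMSO libraries. MCOLN1 stood at 34.5, 21.96 and 17.2 FPKM in genistein, at 8.19 and 39.8 FPKM in BMP6 and at 24.8, 17.9 and 16.4 FPKM in DMSO libraries. LAMP1 and MCOLN1 overlapped DMSO after genistein, while all genistein libraries of LAMP2 lay above it. Beside the cathepsins, CD68, a lysosomal membrane protein listed as a macrophage marker, averaged 79.9 FPKM in genistein and 34.8 FPKM in DMSO libraries (limma adjusted p = 0.0406). LYZ, from the same marker list, averaged 1419 FPKM in genistein and 4216 FPKM in DMSO libraries (limma adjusted p = 0.0448). CD14, from that list too, stood at 32.0, 74.4 and 23.9 FPKM in genistein and at 0, 0 and 19.3 FPKM in DMSO libraries, and the part of this list in the result was not tested.

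**Figure D4:**
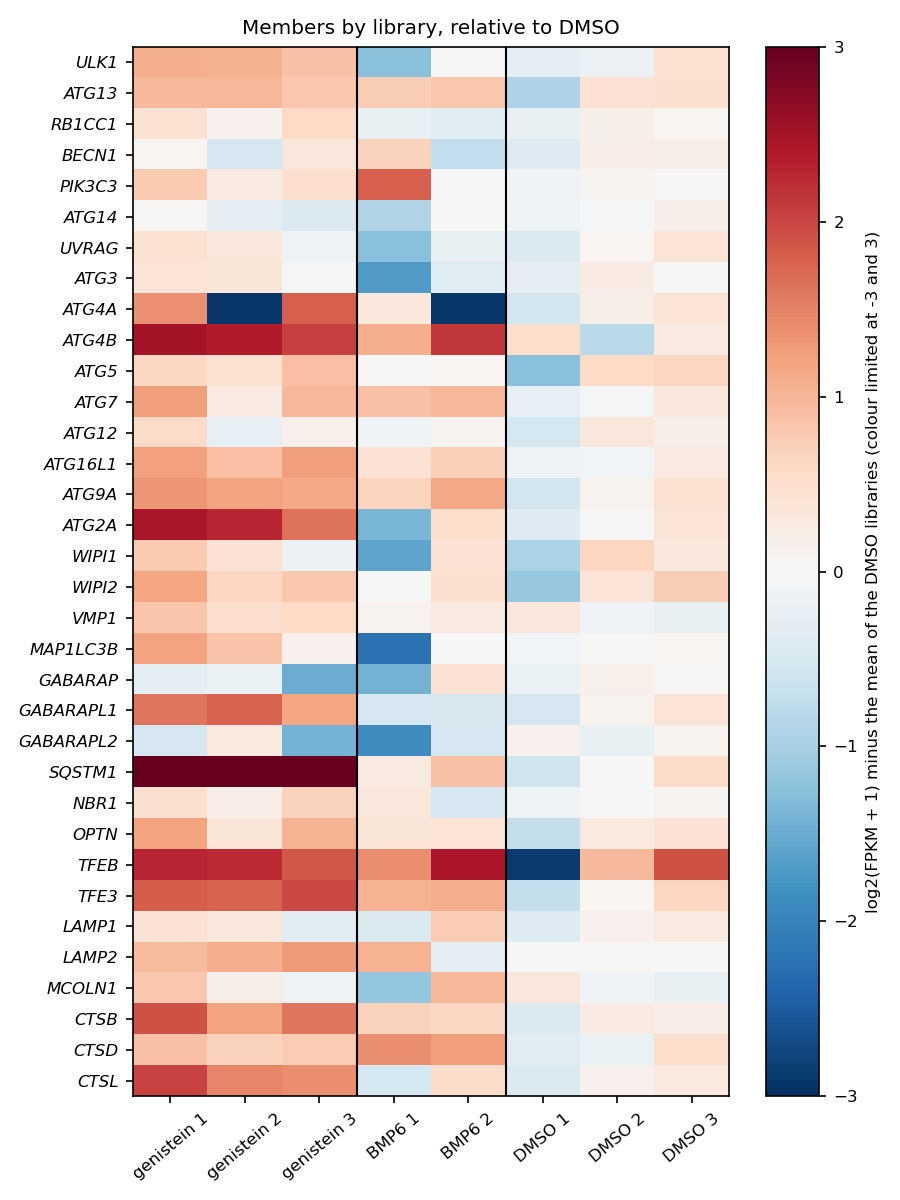
Log2(FPKM + 1) minus the mean of the DMSO libraries for each tested member (down the page, by role) and library (across), with black lines between groups and colours limited at -3 and 3. SQSTM1 and ATG4B are the darkest red in the genistein columns, and BMP6 1 and BMP6 2 differ from each other for MAP1LC3B, GABARAP and PIK3C3.

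The calls other than SQSTM1 depended on having every genistein library and DMSO 2, and some of them on every DMSO library. The count of members past the threshold was 1 without genistein 1, genistein 2, genistein 3 or DMSO 2, 4 without DMSO 1 or DMSO 3, and 11 without BMP6 1 or BMP6 2, where ATG9A, LAMP2 and ULK1 were gained. ATG4B, TFE3 and GABARAPL1 lost the threshold without any genistein library or DMSO 2, at limma adjusted p from 0.0615 to 0.098. ATG2A, CTSB, CTSL and ATG16L1 lost it without any genistein or DMSO library, at limma adjusted p from 0.0614 to 0.157. Without DMSO 1 and genistein 2 together only SQSTM1 passed, and without genistein 3 and BMP6 1 together 6 members did, with ATG16L1, CTSB and TFE3 lost and LAMP2 (limma adjusted p = 0.045) gained. All 8 log2 changes stayed above 0 in every one of these fits.

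**Figure D5:**
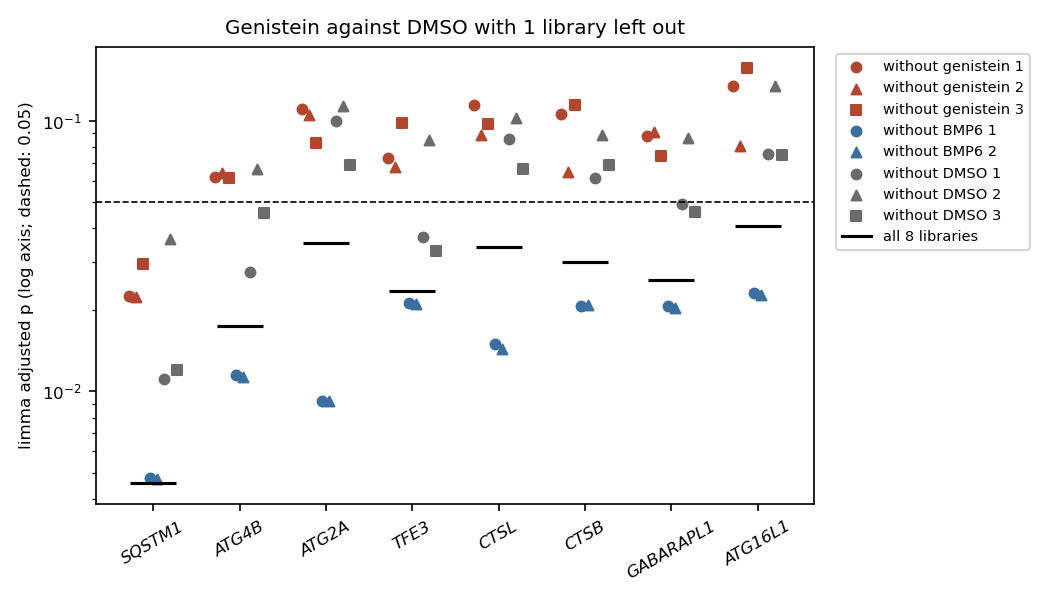
Limma adjusted p on a log axis for genistein against DMSO in the 8 members that passed with all libraries (black bars), when each library in turn is left out (points, coloured by group). SQSTM1 stays below the dashed line at 0.05 in all 8 fits, and the other 7 members cross it without any genistein library.

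No member passed the test after BMP6. None of 34 passed at a limma adjusted p under 0.05, as 0.837% of all tested genes did (0.34% higher and 0.498% lower), and the smallest limma adjusted p was 0.122. At an unadjusted p under 0.05 there were 5 members (18.9% of all genes): CTSD, ATG4B, ATG9A and TFE3 higher and ATG3, the conjugating enzyme for ATG8 proteins, lower. The median log2 change was 0.02 over the members and -0.03 over all genes, with 18 above and 16 below 0. Both BMP6 libraries lay above all DMSO libraries for 8 members, against 16.1% of all genes, and below for 2 (ATG3 and GABARAPL2), against 17.3% (33.3% in either direction). This comparison shares its DMSO libraries with the one for genistein.

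Values of the members with the smallest p after BMP6 stand here beside those after genistein. CTSD had a log2 change of 1.33 ± 0.36 (SE) for BMP6 (limma adjusted p = 0.122) and of 0.78 for genistein. ATG4B had 1.60 ± 0.49 for BMP6 (limma adjusted p = 0.156) and 2.30 for genistein. ATG9A had 0.91 for BMP6 and 1.23 for genistein, and TFE3 had 1.07 and 1.86. ATG3 stood at 86.4, 82.9 and 61.5 FPKM in genistein, at 19.3 and 49.8 FPKM in BMP6 and at 53.2, 77.1 and 65.4 FPKM in DMSO libraries, a log2 change of -1.03 ± 0.45 for BMP6 (limma adjusted p = 0.265; -0.37 without BMP6 1). All 4 ATG8 transcripts had a log2 change below 0 after BMP6, from -0.49 for GABARAPL1 to -1.19 for GABARAPL2, and none passed. Without BMP6 1 the changes were 0.44 for GABARAP, 0.00 for MAP1LC3B, -0.50 for GABARAPL2 and -0.47 for GABARAPL1. The 2 BMP6 libraries disagreed for several members, with 50.5 and 236 FPKM for MAP1LC3B and 100.5 and 28.02 FPKM for PIK3C3. Without BMP6 2, 3 members passed (MAP1LC3B and ATG3 lower, PIK3C3 higher), where BMP6 1 alone was assumed to vary like the other groups.

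Set directly against BMP6, genistein libraries were higher for SQSTM1 and GABARAPL1. These 2 members passed at a limma adjusted p under 0.05 and none was lower, where 1.39% of all tested genes passed, 0.64% higher and 0.75% lower. SQSTM1 was 7.02-fold higher by group means (log2 difference 2.82 ± 0.44, limma adjusted p = 0.0242) and GABARAPL1 4.11-fold (2.00 ± 0.37, limma adjusted p = 0.0474). ATG2A (2.54 ± 0.57, limma adjusted p = 0.0825), CTSL (1.61 ± 0.44, limma adjusted p = 0.137) and ULK1 (1.64 ± 0.45, limma adjusted p = 0.145) were next and did not pass, with differences of 1.59, 1.07 and 0.99 without BMP6 1. The genistein libraries lay above both BMP6 libraries for 15 members, against 16.3% of all genes, and below for 1, CTSD, against 12.6% (28.9% in either direction). At an unadjusted p under 0.05 there were 7 members, all higher (14.7% of all genes in either direction). The median log2 difference was 0.64 over the members and 0.12 over all tested genes. SQSTM1 lost this call without any genistein library, BMP6 1 or DMSO 2 (limma adjusted p from 0.0693 to 0.103), and GABARAPL1 without any library but DMSO 1 (from 0.0551 to 0.178). Without BMP6 2, 6 members passed.

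The wider pathway was read from 8 lists of 144 further genes, of which 139 were matched and 129 tested. After genistein 4 were higher and 1 lower, where 6.11% of all tested genes were higher and 5.96% lower. The median log2 change was 0.07, and 68 of 129 (52.7%) were above 0, as were 51.5% of all genes. TAX1BP1, a cargo receptor related in function to p62, stood at 581, 439 and 501 FPKM in genistein, at 356 and 304 FPKM in BMP6 and at 112, 134 and 149 FPKM in DMSO libraries. It rose by 1.94 ± 0.28 (log2, SE; limma adjusted p = 0.00777), while none of the other 7 receptors tested passed. DDIT4, a stress-induced inhibitor of the growth kinase mTORC1, stood at 322, 347 and 345 FPKM in genistein, at 139 and 264 FPKM in BMP6 and at 69.5, 49.6 and 54.7 FPKM in DMSO libraries. It rose by 2.54 ± 0.32 (log2, SE; limma adjusted p = 0.00582), the smallest p of the 129. For both genes the groups stood in the order genistein, BMP6, DMSO without overlap, and both passed in every fit without 1 library.

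PRKAA2, a catalytic subunit of the energy sensor AMPK, averaged 20.9 ± 1.76 FPKM in genistein and 7.03 ± 0.973 FPKM in DMSO libraries (SD, n = 3 each), and rose by 1.45 ± 0.34 (log2, SE; limma adjusted p = 0.0315). PRKAA2 and DDIT4 were the 2 of 28 genes of mTORC1 and nutrient control that passed. WDR45B, a relative of the WIPI proteins, averaged 234 ± 34.2 FPKM in genistein and 111 ± 17.5 FPKM in DMSO libraries (1.08 ± 0.28, limma adjusted p = 0.0414) and was 1 of 16 other autophagosome formation genes. LIPA, the acid lipase of the lysosome, stood at 24.3, 57.2 and 35.9 FPKM in genistein and at 617, 158 and 127 FPKM in DMSO libraries, with DMSO 1 far above the others. It fell by 2.62 on the log2 scale (SE 0.68, limma adjusted p = 0.043), 1 of 29 other lysosomal hydrolases. The cysteine cathepsins among these, CTSC, CTSH, CTSK and CTSV, did not pass (limma adjusted p from 0.257 to 0.806). PRKAA2, WDR45B and LIPA lost the threshold without any genistein or DMSO library, at limma adjusted p from 0.0519 to 0.136. Each also lost it with a replicate block or without DMSO 1 and genistein 2 together. LIPA further lost it with a pseudocount of 0.1, median-of-ratios scaling or no intensity trend, and WDR45B with a mean of at least 5 FPKM or no intensity trend.

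No gene passed in the other 4 lists after genistein. These were autophagosome to lysosome fusion (0 of 11, 7 above 0), the V-ATPase proton pump that acidifies the lysosome (0 of 15, 10 above 0), other lysosomal membrane and lumen proteins (0 of 17, 8 above 0) and other transcription factors of autophagy (0 of 5, 2 above 0). After BMP6 none of the 129 passed and 17 had an unadjusted p under 0.05, as did 18.9% of all genes. The log2 change was 1.32 ± 0.31 for TAX1BP1 (limma adjusted p = 0.094) and 1.72 ± 0.36 for DDIT4 (limma adjusted p = 0.0728). Without BMP6 2 both passed (0.0355 and 0.041).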

How the data were processed

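PolyA RNA of HepG2 cells was sequenced on a Genome Analyzer II, per the labels' protocols. Each of the authors' deposited files gives FPKM values by Ensembl ID together with interval bounds and a status, per the file headers. The submitters' processing notes name Bowtie, TopHat 1.1.0, Cuffdiff, Cufflinks 1.0.3 and genome build hg18, and neither scaling, annotation nor use of strand is given in the sources used here. No read counts could be recovered: the 1000 lowest values above 0 of each library did not follow transcript length (Spearman correlation -0.0811 to 0.0775). Depth is therefore unknown, and no counting interval was computed. A 0 may be a failed estimate, but 31 to 55 genes a library had a FAIL status while 8347 to 10364 were at 0. The status of members listed at 0 was not examined.

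A gene was tested if 2 or more libraries had 1 FPKM or more, on log2(FPKM + 1) with limma 3.58.1 (R 4.3.3), with an intensity trend and all 8 libraries in 1 fit (5 residual degrees of freedom). Tests were two-sided, with Benjamini-Hochberg adjustment over 12661 genes and a threshold of 0.05. Fold changes on this scale understate those of low genes. Groups and replicate numbers came from the sample titles. The members and lists were chosen with earlier results of these data known. All members past the threshold, the largest change of each role and all ATG8, receptor, transcription factor and lysosomal members are given per library, the others by mean or overlap, and up to 4 genes of each further list are named. For the further lists, 1 result between genistein and BMP6 is not reported here. Symbols were matched through a table of gene names (19102 IDs with a symbol). Coordinates of genes are in hg18, and promoters are RefSeq sequences of GRCh38.p14. Alternatives were a pseudocount of 0.1, median-of-ratios scaling, no filter, a filter on the mean (5 FPKM or more), no trend, a replicate block, the 2 groups alone, each library left out, and pairs of libraries left out.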

Additional observations from a re-analysis of the deposited data

How the results depend on the processing

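Among all genes, genistein against DMSO gave 1527 calls with all libraries, 2616 with the 2 groups alone, 421 without DMSO 1 and genistein 2, and 244 to 2615 with 1 library left out. The split was 773 higher and 754 lower, and 927 higher and 1312 lower with median-of-ratios scaling. For BMP6 against DMSO, 106 calls became 38 with a mean of at least 5 FPKM, 382 with median-of-ratios scaling, 173 with no trend, 13 with the 2 groups alone, 161 without DMSO 1 and genistein 2, 3 without genistein 3 and BMP6 1, and 5 to 1892 with 1 library left out. For genistein against BMP6, 176 calls became 417 with median-of-ratios scaling, 81 with the 2 groups alone, 1 without genistein 3 and BMP6 1, and 48 to 540 with 1 library left out. The members past the threshold for genistein against DMSO were 8, and 1 without DMSO 1 and genistein 2, 6 without genistein 3 and BMP6 1, and 1 to 11 with 1 library left out. For BMP6 against DMSO they were 0, and 0 to 3 with 1 library left out. For genistein against BMP6 they were 2, and 1 with a mean of at least 5 FPKM or no trend, 4 with median-of-ratios scaling, 0 with the 2 groups alone or without either pair of libraries, and 0 to 6 with 1 library left out. The cause of these differences was not tested. Leaving out genistein 3 and BMP6 1 was chosen after seeing the data.

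With the replicate number as a block, the calls were 414 among all genes and 1 member (SQSTM1) for genistein against DMSO, 4 and 0 for BMP6 against DMSO, and 7 and 0 for genistein against BMP6. Deviations of libraries with the same number from their group means correlated at -0.247 to 0.286. These means rest on only 2 or 3 libraries, so whether the numbers pair the libraries cannot be told from this. GABARAP after BMP6 (0.44 without BMP6 1) and ATG4A after genistein (-0.02 with median-of-ratios scaling) were among the log2 changes whose sign changed in an alternative. Depth limits the low members, such as ATG4A, but it is unknown here and no floor could be set.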
